A study of Homo sapiens with 8 samples.

Results

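Ribosome biogenesis factors are the proteins that build ribosomal subunits without being part of the finished ribosome. They were taken from the table of translation efficiency by gene name, as every UTP, RRP, NOC2L to NOC4L and NOP gene (NOP2 apart) together with a list of 14 named factors, which gave 42 of the 11244 genes of that table. Of the 42, 26 act on the small (40S) subunit, 11 on the large (60S) subunit, 3 belong to the core of small nucleolar ribonucleoproteins (snoRNPs) and 2 are general nucleolar proteins. METTL5 is the enzyme that places N6-methyladenosine on 18S rRNA, the RNA of the 40S subunit, and the comparison asked whether its loss shifts the RNA abundance, the ribosome-protected fragments (RPF) or the translation efficiency (TE, RPF relative to input RNA) of the assembly genes.

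Ribosomal RNA is transcribed in the nucleolus as a long precursor. A large particle called the small subunit (SSU) processome, organized around the U3 snoRNP and the UtpA and UtpB complexes, folds and cuts the 18S part, and late factors then carry the pre-40S particle to the cytoplasm. A separate set of factors matures the pre-60S particle, and the snoRNPs guide most chemical modifications of the rRNA in both arms.

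There were 8 libraries, 2 replicates in each of 4 groups: METTL5-WT input, METTL5-WT RPF, METTL5-KO input and METTL5-KO RPF. The cells were labelled HepG2, an established human liver cancer line. METTL5-KO cells carried a CRISPR-Cas9 deletion in METTL5, METTL5-WT cells did not, and every plate was treated with cycloheximide, which stops elongating ribosomes on the mRNA. Cells of each genotype had been grown from single isolated clones. The sources do not tie replicates to clones, so clone and genotype cannot be told apart, and p-values measure only the spread between these libraries.

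METTL5 was examined first, as it checks the labels. Its input held 490 and 542 reads in METTL5-WT, against 208 and 151 in METTL5-KO. Its RPF held 158 and 226 reads in METTL5-WT, against 41 and 21 in METTL5-KO, so both KO libraries lay below both WT libraries in either measurement. The label of the cell line did not pass the same kind of check. None of 8 hepatocyte markers (ALB, AFP, APOA1, APOB, TTR, SERPINA1, HNF4A and FGB) had more than 9 counts in any input library, 3 of the 8 were at 0 in all of them, and their summed counts ranged from 3 to 12 per library, of 10710226 to 15307256 counts in all. The collagen gene COL3A1, a marker of mesenchymal cells, had 2536 to 3317 counts in the same libraries and COL1A1 had 429 to 937. The other markers of non-liver cells looked at (PTPRC, PECAM1, CDH5, DES, KRT5 and KRT14) had at most 12 counts in any input library. The data therefore went against the label in both genotypes, and the samples are called by genotype only. The RPF reads numbered 3970779 and 4592443 for METTL5-WT, fewer than the 8626705 and 9255921 for METTL5-KO, so a low gene is least precise in METTL5-WT RPF.

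The 42 factors differed widely in the base composition of their coding sequences, a property that the changes between genotypes moved with. GC content of the coding sequence ran from 38.6% in NOC3L to 65.4% in BOP1, with a median of 50.2%, beside 52.3% over all genes tested for TE. The coding starts of the 2 factors whose TE was called (RRP1 and RRP7A), of the 2 with the lowest GC at the third position of codons (UTP15 and NOP58) and of the 2 with the highest (IMP3 and NOC4L) are shown 5′ to 3′ from hg38, each from its start codon within a coding exon. Capitals mark G or C at the third position of a codon.
RRP1 (chr21:43789630-43789689, plus strand): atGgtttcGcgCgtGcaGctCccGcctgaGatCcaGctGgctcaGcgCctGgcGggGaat
RRP7A (chr22:42519727-42519786, minus strand): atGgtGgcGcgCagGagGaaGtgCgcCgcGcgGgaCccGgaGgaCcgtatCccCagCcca
UTP15 (chr5:73567345-73567404, plus strand): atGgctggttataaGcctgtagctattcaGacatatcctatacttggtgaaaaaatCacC
NOP58 (chr2:202265942-202265986, plus strand): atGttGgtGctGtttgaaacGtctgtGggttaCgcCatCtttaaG
IMP3 (chr15:75640109-75640168, minus strand): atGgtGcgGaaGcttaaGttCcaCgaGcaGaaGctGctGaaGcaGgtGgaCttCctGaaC
NOC4L (chr12:132144489-132144548, plus strand): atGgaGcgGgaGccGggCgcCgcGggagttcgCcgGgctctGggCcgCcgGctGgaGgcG
Over the whole coding sequence, the share of codons with G or C at the third position was 87.0% in IMP3 and 86.4% in NOC4L, against 32.6% in UTP15 and 33.6% in NOP58. RRP1 with 73.8% and RRP7A with 75.4% lay on the GC-rich side.

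The factors were also unequal in expression. Levels between genes were compared only per length, as input reads per kilobase of the canonical transcript and RPF reads per kilobase of coding sequence, both after division by the size factor of the library and averaged over METTL5-WT. Input levels ran from 32.3 per kb in UTP25, a processome factor, to 4313 in NPM1, the histone chaperone nucleophosmin, with a median of 262 over the 42 factors beside 84.1 over all genes. RPF levels ran from 87.2 per kb in UTP25 to 12781 in NCL, the abundant nucleolar RNA-binding protein nucleolin, with a median of 605 beside 178. Both medians of the factors thus lay above those of the whole table. The ratio of the 2 levels, TE per length, had a median of 2.68 over the factors and 2.23 over all genes.

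TE per length was highest in WDR12 (10.2), RRP8 (9.85) and RRP15 (9.82), all of the 60S arm, and their canonical transcripts are long, at 8068, 6559 and 7765 bases, a length that divides their input level. BYSL, bystin, a late 40S factor, was highest in its arm at 6.87. After NPM1, the lowest values were 0.96 in NOC3L, which works in the early pre-60S particle, and 1.00 in UTP23, a processome factor. The replicates of NOC3L (0.90 and 1.03) and UTP23 (1.12 and 0.88) overlapped, so these neighbours in the order did not differ beyond their spread.

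NPM1 stood apart from the other 41 factors in this ratio. Its input values were 5596 and 5789 normalized reads in METTL5-WT, against 5852 and 6432 in METTL5-KO, while RPF held only 34 and 64 reads in METTL5-WT, against 72 and 117 in METTL5-KO. Its TE per length of 0.027 lay at percentile 0.04 of all genes. Of the windows of 30 bases in its coding sequence, 91.2% also occur in annotated transcripts of other genes, 55 of them, and the RPF reads were kept only where they mapped to at most 1 place. The first 58 bases of its coding sequence, which lie in one exon, show this, since the capitals mark bases inside a shared window and no base is outside.
NPM1 (chr5:171387949-171388006, plus strand): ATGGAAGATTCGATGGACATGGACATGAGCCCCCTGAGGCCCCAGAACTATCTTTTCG
The RPF level of NPM1 is therefore uncertain in every library. Shared windows were also frequent in RRP7A (50.6%, mainly with the pseudogene RRP7BP), LTV1 (41.98%), NOC2L (34.6%), NOB1 (34.2%), NOP53 (29.3%), UTP14A (24.2%), WDR12 (15.7%) and UTP18 (10.1%). The remaining factors had at most 8.21%, and 25 of the 42 had none, RRP1 among them.

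**Figure D1:**
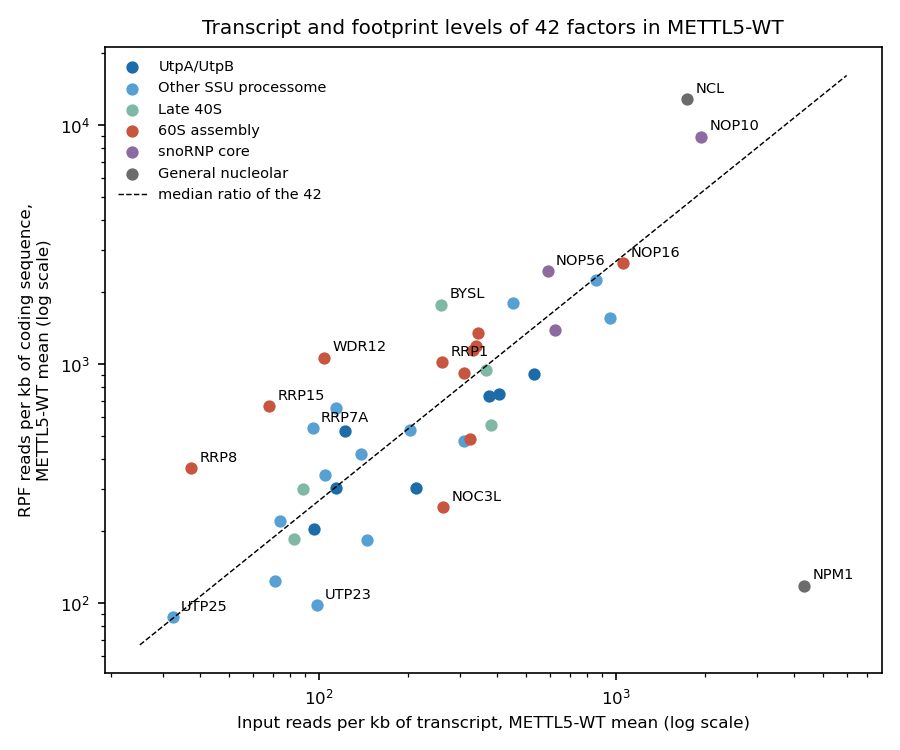
Input reads per kb of transcript (x axis, log scale) against RPF reads per kb of coding sequence (y axis, log scale) for the 42 factors, each point the mean of 2 METTL5-WT libraries and coloured by role; the dashed line is the median ratio of 2.68. NPM1 lies far below the line, while WDR12, RRP8 and RRP15 lie above it.

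In input RNA, the share of factors called lay below that of the whole table. Tested with edgeR, 7 of 42 factors (16.7%) were called at an adjusted p under 0.05, against 22.4% of 14054 genes tested. The 2 higher in METTL5-KO were NOC4L and RRP8, and the 5 lower were UTP4, NOP56, NOC3L, UTP18 and NOB1, where 11.8% of all genes were called higher and 10.6% lower. Unadjusted p-values under 0.05 were reached in edgeR by 33.3% of the factors, beside 34.2% of all genes. The groups did not overlap for 25 of 42 factors (59.5%), beside 63.3% of all genes. Both KO libraries lay above both WT libraries for 12 factors and below for 13, beside 31.9% and 31.4% of all genes. The median log2 change was -0.07 over the factors and -0.00 over all genes.

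With a local trend on GC content removed and limma fitted to the log2 values, 8 of 42 factors were called, beside 1952 of 11240 genes. These calls are of limma alone, without edgeR as a second condition. They were these 7 and NOP9, a processome factor, at -0.31. Single libraries were then left out of the edgeR fit, without removal of the trend. The count was 24 (57.1%, beside 39.1% of all genes) without METTL5-KO replicate 1 and 10 (23.8%, beside 25.6%) without METTL5-KO replicate 2. It was 1 (NOC4L; 2.38%, beside 8.94%) without METTL5-WT replicate 1 and 3 (NOC4L, UTP4 and NOP56; 7.14%, beside 10.1%) without METTL5-WT replicate 2. NOC4L was thus the 1 factor called with each library left out in turn.

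The 2 factors that rose in input RNA act in different arms. NOC4L, which pairs with NOP14 in the SSU processome, had 176 and 169 normalized reads in METTL5-WT, against 258 and 363 in METTL5-KO, with both KO libraries above both WT libraries but far from each other. Its log2 change was 0.84 ± 0.16 (SE; edgeR adjusted p = 0.00059). RRP8, a nucleolar methyltransferase of 28S rRNA, had 252 and 237 normalized reads in METTL5-WT, against 341 and 335 in METTL5-KO, a change of 0.45 ± 0.14 (edgeR adjusted p = 0.0199). NOP53, a pre-60S factor that brings the exosome to the particle, was the third in size at 0.31 ± 0.13 and was not called (edgeR adjusted p = 0.0947). Its 533 and 504 normalized reads in METTL5-WT lay below the 564 and 734 in METTL5-KO. Its change was 0.50 and called without METTL5-KO replicate 1 (edgeR adjusted p = 3.1e-05), 0.10 without METTL5-KO replicate 2 and 0.12 with the GC trend removed.

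The falls in input RNA included factors of both arms and of the snoRNPs. UTP4, a subunit of UtpA, had 850 and 787 normalized reads in METTL5-WT, against 558 and 559 in METTL5-KO, a log2 change of -0.56 ± 0.12 (SE; edgeR adjusted p = 0.00114). NOP56, a core protein of the box C/D snoRNPs, which guide ribose methylation, had 1191 and 1069 in METTL5-WT, against 788 and 784 in METTL5-KO, a change of -0.54 ± 0.12 (edgeR adjusted p = 0.00158). For both genes the KO libraries nearly coincided and lay below the WT pair. NOC3L had 932 and 882 normalized reads in METTL5-WT, against 687 and 622 in METTL5-KO, a change of -0.49 ± 0.12 (edgeR adjusted p = 0.00423). UTP18, of UtpB, changed by -0.39 ± 0.12 (edgeR adjusted p = 0.0156), and NOB1, the endonuclease that makes the final cut at the end of 18S rRNA, by -0.37 ± 0.13 (edgeR adjusted p = 0.0386). The call of NOB1 was lost with DESeq2 (adjusted p = 0.0799), with edgeR on genes unfiltered for low counts (adjusted p = 0.0796) and without METTL5-KO replicate 1 or either METTL5-WT replicate, where the changes were -0.22, -0.33 and -0.42.

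For 5 of these 7 genes, the genes next to them on the chromosome had shifted the same way. Over the 20 tested genes on each side, where the chromosome had them, the median input log2 change was 0.49 around RRP8 (chr11:6595072-6603616), 0.41 around NOC4L (chr12:132144457-132152473), -0.22 around NOP56 (chr20:2652593-2658393), -0.30 around UTP4 (chr16:69131291-69231130) and -0.43 around NOB1 (chr16:69741871-69754926). UTP4 and NOB1 lie 510740 bases apart, so their neighbours can be partly the same genes. Around UTP18 on chromosome 17 and NOC3L on chromosome 10 it was -0.03 and -0.15. A neighbour median of at least 0.2 in size, in either direction, was seen around 18.6% of all genes and 19.0% of the 42 factors. These shares cover genes whether called or not, so they do not give the rate around called genes. The part of the neighbours in these changes was not tested.

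In RPF, factors were called at close to the rate of the whole table. A gene was called where limma on log2(value + 1) and edgeR on the recovered reads both gave an adjusted p under 0.05 in the same direction, which held for 11 of 42 factors (26.2%) against 26.6% of 11240 genes. The 5 higher in METTL5-KO were RRP1, NOC4L, NOP10, IMP3 and UTP11, and the 6 lower were NOP56, UTP4, RRP7A, NCL, NOB1 and BOP1, where 14.1% of all genes were called higher and 12.5% lower. In limma, 13 of the 42 factors (31.0%) had an unadjusted p under 0.05, a smaller share than the 4497 of 11240 genes. The groups did not overlap for 29 of the 42 (69.0%), beside 61.4% of all genes, with 17 factors above and 12 below, beside 32.4% and 29.0%. The median log2 change was 0.07 over the factors and 0.02 over all genes. RRP1 and NOP56 kept their calls with each library left out in turn, and the count was 7 (16.7%, beside 19.6% of all genes) without METTL5-WT replicate 1 and 4 (9.52%, beside 18%) without METTL5-WT replicate 2. The calls lost without METTL5-WT replicate 2 were those of NOC4L, NOP10, IMP3, UTP11, UTP4, NCL and BOP1.

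RRP1, a nucleolar protein needed for maturation of the 60S precursor, rose most in RPF. It had 1404 and 1420 normalized RPF reads in METTL5-WT, against 2314 and 2373 in METTL5-KO, so each pair lay close together and the gap between pairs was wide. The log2 change was 0.73 ± 0.12 (SE; limma adjusted p = 0.000228), a fold of 1.66. NOC4L had 551 and 517 normalized RPF reads in METTL5-WT, against 798 and 788 in METTL5-KO, a change of 0.57 ± 0.16 (limma adjusted p = 0.0116), in the direction of its input. NOP10, the small core protein of the box H/ACA snoRNPs, which guide pseudouridylation, had 1860 and 1568 in METTL5-WT, against 2775 and 2289 in METTL5-KO, a change of 0.56 ± 0.12 (limma adjusted p = 0.00244). In each of the 3 the KO libraries lay above the WT libraries. IMP3, a protein of the U3 snoRNP, rose by 0.53 ± 0.10 (limma adjusted p = 0.00117), and UTP11, of the processome, by 0.32 ± 0.10 (limma adjusted p = 0.0291).

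NOP56 fell most in RPF, with 4229 and 4464 normalized reads in METTL5-WT, against 2776 and 3072 in METTL5-KO. Its log2 change of -0.57 ± 0.10 (SE; limma adjusted p = 0.000492) was close to its input change of -0.54. UTP4 likewise had 1385 and 1647 in METTL5-WT, against 1123 and 987 in METTL5-KO, a change of -0.52 ± 0.12 (limma adjusted p = 0.0032) beside -0.56 in input. RRP7A, a processome factor, had 504 and 405 in METTL5-WT, against 317 and 330 in METTL5-KO, a change of -0.48 ± 0.14 (limma adjusted p = 0.0188), while its input values of 509 and 524 in METTL5-WT lay below the 576 and 712 in METTL5-KO. RRP7A was thus lower in RPF without being lower in input RNA.

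NCL, the factor with the highest RPF level per kb, changed by -0.48 ± 0.13 in RPF (SE; limma adjusted p = 0.0123), with 23567 and 30881 normalized reads in METTL5-WT, against 20548 and 18276 in METTL5-KO. Its change was -0.28 (limma adjusted p = 0.228) without METTL5-WT replicate 2 and -0.39 (limma adjusted p = 0.115) without METTL5-KO replicate 2. NOB1 changed by -0.40 ± 0.12 (limma adjusted p = 0.0211). BOP1, which forms the PeBoW complex of 60S assembly with PES1 and WDR12, changed by -0.34 ± 0.11 (limma adjusted p = 0.0274). Its partners were not called, with RPF changes of -0.13 ± 0.11 in PES1 and 0.21 ± 0.11 in WDR12. With the trend on GC content removed, BOP1 and UTP11 lost their RPF calls, with changes of -0.19 and 0.18, and NOC2L and TSR1 gained one, with 0.29 and -0.23. In that setting 11 of 42 factors were called in RPF, beside 3302 of 11240 genes.

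**Figure D2:**
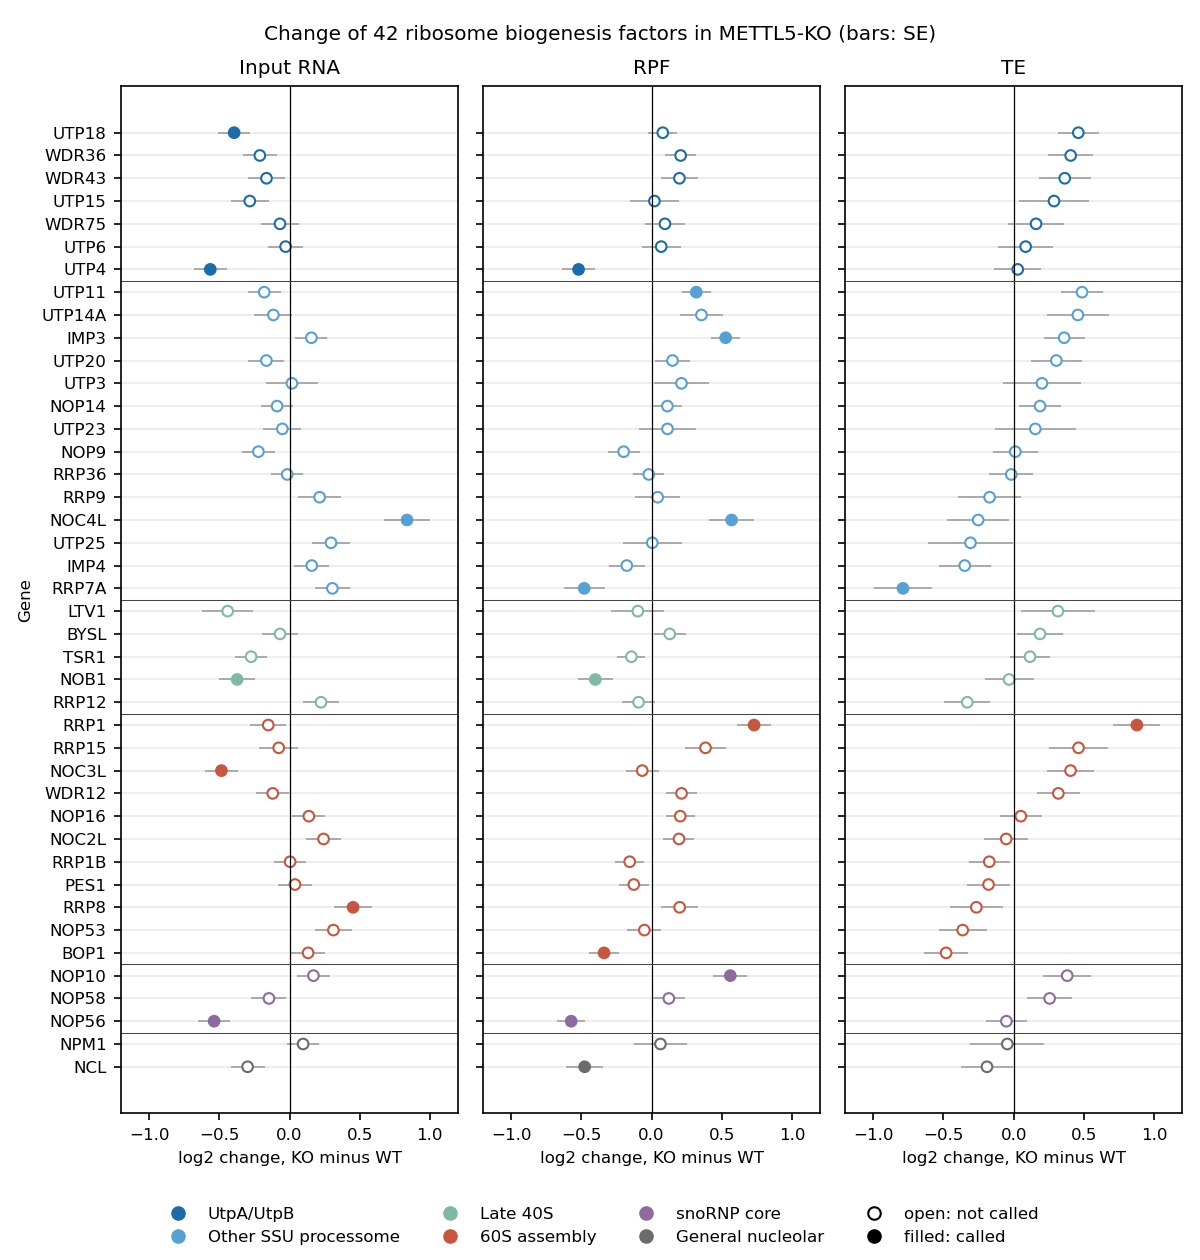
Log2 change (METTL5-KO minus METTL5-WT, x axis) of each of the 42 factors in input RNA, RPF and TE, with its standard error; genes are grouped by role, filled points were called and open points were not. RRP1 at 0.88 and RRP7A at -0.79 are the filled points of the TE panel.

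TE asks whether ribosome occupancy changed beyond the RNA. By the interaction of genotype and library type, 2 of 42 factors (4.76%) were called, RRP1 higher and RRP7A lower, against 4.72% of 11240 genes (2.65% higher and 2.06% lower). Both factors, 1 of each arm, were among those called in RPF, which shares its libraries with TE, and neither was called in input. Unadjusted p-values under 0.05 were reached by 10 of the 42 (23.8%), beside 22.6% of all genes. The per-library log2 TE of the groups did not overlap for 27 of the 42 (64.3%), beside 53.2% of all genes, with KO above WT for 19 and below for 8, beside 28.2% and 25.0%. The median log2 change of TE was 0.10 over the factors and 0.02 over all genes. With the trend on GC content removed, these medians were 0.05 and 0.02.

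RRP1 (ENSG00000160214, chr21:43789513-43805293) had a log2 TE of 0.79 and 0.96 in METTL5-WT, against 1.90 and 1.599 in METTL5-KO. Its input values, 813 and 730 normalized reads in METTL5-WT, against 617 and 783 in METTL5-KO, overlapped, while its RPF values did not. The lower METTL5-KO input, of replicate 1, went with the higher METTL5-KO log2 TE. The RPF change was 0.73. The TE change was 0.88 ± 0.17 (SE; limma adjusted p = 0.00923, edgeR adjusted p = 0.00277). The larger of the limma and edgeR adjusted p rose to 0.0667 without METTL5-WT replicate 1, 0.0575 without METTL5-KO replicate 1 and 0.0724 without METTL5-KO replicate 2, with changes of 0.79, 0.73 and 1.03, and to 0.149 in limma without the variance trend. Its paralog RRP1B, also on chromosome 21, had a log2 TE of -0.59 and -0.54 in METTL5-WT, against -0.80 and -0.68 in METTL5-KO, with a TE change of -0.17 ± 0.14 (limma adjusted p = 0.506). The difference between the paralogs was not tested.

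RRP7A (ENSG00000189306, chr22:42508344-42519796) had a log2 TE of -0.02 and -0.37 in METTL5-WT, against -0.86 and -1.11 in METTL5-KO. Both KO libraries lay below both WT libraries, with a spread in METTL5-WT larger than that in METTL5-KO. The TE change was -0.79 ± 0.20 (SE; limma adjusted p = 0.0378, edgeR adjusted p = 0.0132). The limma adjusted p was 0.211 without METTL5-WT replicate 1, 0.0775 without METTL5-KO replicate 1 and 0.268 without METTL5-KO replicate 2, with changes of -0.61, -0.91 and -0.66, and 0.178 in limma without the variance trend. It was -0.56 and no longer called once the trend on GC content was removed (limma adjusted p = 0.0924). As 50.6% of its coding windows occur in other genes too, its level is uncertain besides.

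Beyond these, the TE changes furthest above 0 were 0.49 ± 0.15 in UTP11 (limma adjusted p = 0.0664) and 0.46 ± 0.21 in RRP15, a pre-60S factor (limma adjusted p = 0.202). UTP11 had a log2 TE of 0.61 and 0.54 in METTL5-WT, against 1.01 and 1.12 in METTL5-KO, and RRP15 had 0.01 and 0.18 against 0.46 and 0.65. In both genes the KO libraries lay above the WT libraries. Those furthest below 0 after RRP7A were -0.48 ± 0.16 in BOP1 (limma adjusted p = 0.0803) and -0.36 ± 0.17 in NOP53 (limma adjusted p = 0.222). BOP1 had a log2 TE of 1.41 and 1.499 in METTL5-WT, against 1.02 and 0.92 in METTL5-KO, and NOP53 had 1.90 in both METTL5-WT lysates and 1.70 and 1.37 in METTL5-KO. None of these 4 genes was called by limma and edgeR together, and DESeq2 on the recovered reads called UTP11, at 0.49 (adjusted p = 0.0385). With the GC trend removed the changes were 0.24 in UTP11, 0.23 in RRP15, -0.13 in BOP1 and -0.02 in NOP53.

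**Figure D3:**
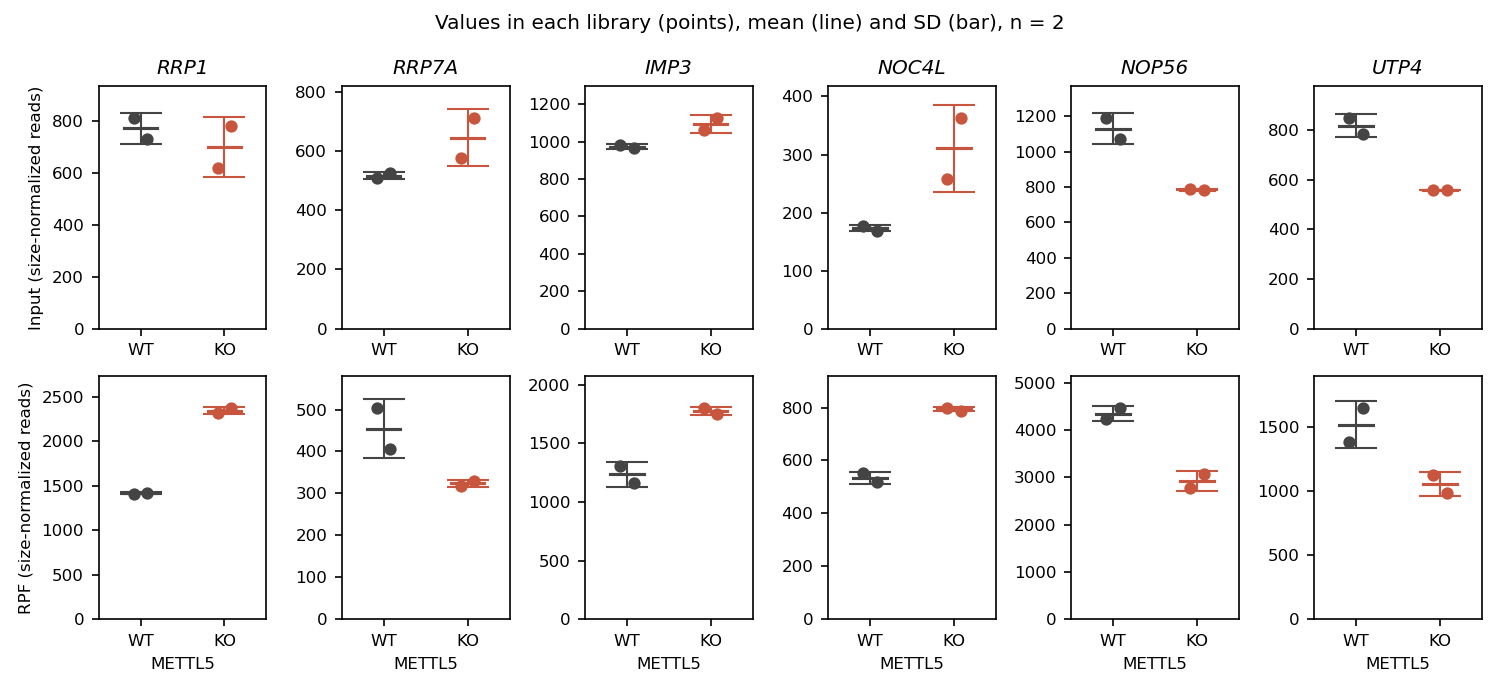
Size-normalized reads (y axes, from 0) of 6 factors in each input library (upper row) and each RPF library (lower row) of METTL5-WT and METTL5-KO; points are libraries, lines means and bars SD (n = 2). RRP1 lies at 1404 and 1420 in METTL5-WT RPF and at 2314 and 2373 in METTL5-KO RPF with overlapping input, and NOP56 and UTP4 fall in both rows.

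Within the 40S arm, 7 of the factors chosen by name were UtpA and UtpB subunits (UTP4, UTP15, WDR43, WDR75, UTP6, UTP18 and WDR36). These 7 all had a log2 change under 0 in input RNA, from -0.56 to -0.03, and 2 were called. Over all genes, 7098 of 14054 had an input change under 0. Their input median was -0.21 and their TE median 0.29, with TE changes from 0.03 in UTP4 to 0.46 in UTP18. None was called, 2 had an unadjusted p under 0.05, and DESeq2 called 1. The coding sequences of these 7 had the lowest median GC of the larger role groups, 43.8%. With the GC trend removed their input median was -0.09 and their TE median 0.01. The other 14 processome factors had medians of 0.00 in input, 0.11 in RPF and 0.08 in TE, with changes on both sides of 0.

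The 5 late 40S factors (NOB1, BYSL, LTV1, TSR1 and RRP12) had medians of -0.27 in input, -0.10 in RPF and 0.12 in TE. NOB1 alone was called among them, in input and RPF. LTV1, an export factor of the pre-40S particle, had an input change of -0.44 ± 0.18 (edgeR adjusted p = 0.0814). TSR1, which resembles a translational GTPase, had one of -0.27 ± 0.11 (edgeR adjusted p = 0.0857). BYSL and RRP12 had input changes of -0.07 ± 0.13 and 0.22 ± 0.13.

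Among the 60S factors, NOC2L, NOP16, PES1, RRP1B, RRP15, WDR12 and NOP53 were called in no comparison. Their input changes ran from -0.12 in WDR12 to 0.31 in NOP53. NOC2L and NOC3L, which bind each other, had input changes of 0.24 ± 0.12 and -0.49 ± 0.12, and this difference was not tested. Of the 3 snoRNP core proteins, NOP58, the partner of NOP56, had changes of -0.15 ± 0.12 in input, 0.12 ± 0.11 in RPF and 0.26 ± 0.16 in TE, none of them called. In all, 28 of the 42 factors (66.7%) were called in no comparison, beside 59.5% of the 11003 genes tested in all 3.

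The 2 arms were set side by side by their medians, with no test between them. In input RNA the median log2 change was -0.08 over the 26 factors of the 40S arm and 0.04 over the 11 of the 60S arm, a difference of -0.12. In RPF it was 0.07 and 0.20, a difference of -0.12, and in TE 0.16 and -0.05, a difference of 0.21. A replicate spread was taken from each library's 40S median minus 60S median of the deviations from the gene means. It was combined over the genotypes as the root of the summed variances. The SD was 0.19 for input, 0.046 for RPF and 0.12 for TE (n = 2 per genotype). For input the library values were 0.04 and 0.13 in METTL5-WT, against 0.02 and -0.23 in METTL5-KO. They were 0.06 and 0.02 against -0.00 and -0.05 for RPF, and 0.00 and -0.15 against 0.05 and 0.14 for TE. Medians of library deviations are not medians of fitted changes, so the SD is a rough guide to the differences above. The input difference was smaller than its SD, and those of RPF and TE were larger than theirs. Quantile normalization moved the RPF difference to -0.0368, and it was -0.0396 without METTL5-WT replicate 1 and -0.0614 without METTL5-KO replicate 2, while the TE difference was 0.0751 without METTL5-KO replicate 2. Called factors numbered 4 of 26 in the 40S arm (15.4%) and 2 of 11 in the 60S arm (18.2%) for input, beside 22.4% of all genes. They numbered 6 (23.1%) and 2 (18.2%) for RPF, beside 26.6%, and 1 (3.85%) and 1 (9.09%) for TE, beside 4.72%.

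**Figure D4:**
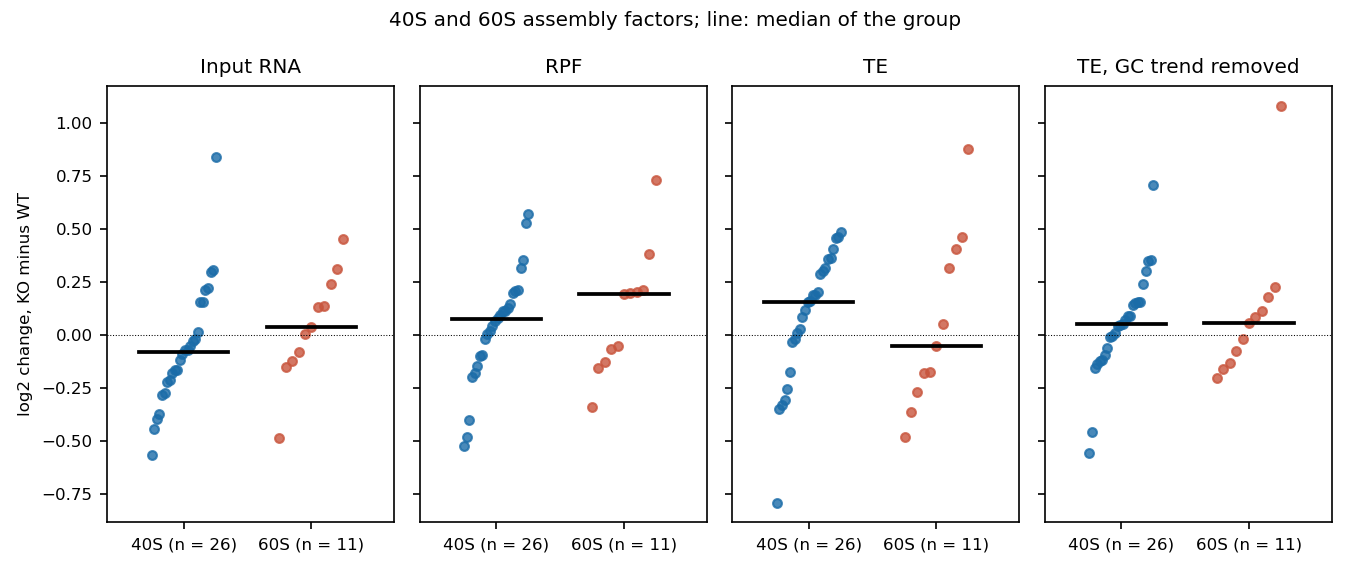
Log2 change (METTL5-KO minus METTL5-WT, y axis) of each 40S factor (n = 26) and each 60S factor (n = 11) in input RNA, RPF, TE and TE with the GC trend removed; points are genes and lines group medians. The medians of TE stand at 0.16 and -0.05, and at 0.05 and 0.06 once the trend is removed.

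The changes of the factors moved with the GC content of their coding sequences. Over the 42 genes, Spearman's rho with coding GC content was 0.60 for the input change, -0.11 for RPF and -0.56 for TE, given as a description since the genes share their libraries. Over all genes with an annotated coding sequence it was 0.32, -0.19 and -0.47. The 2 METTL5-KO input libraries also differed from each other along this axis, with a rho of 0.80 for replicate 2 minus replicate 1, against 0.17 for the METTL5-WT pair. Median coding GC was 47.8% in the 40S arm and 55.4% in the 60S arm.

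With a local trend on GC content removed from every library, the TE medians of the 40S and 60S arms were 0.05 and 0.06, and their difference was -0.00 in place of 0.21. RRP1 had a TE change of 1.08 (limma adjusted p = 0.00132) and remained called. IMP3, the factor with the highest GC content at the third position, had a log2 TE of 0.42 and 0.27 in METTL5-WT, against 0.77 and 0.64 in METTL5-KO, and its TE change of 0.36 (limma adjusted p = 0.157) became 0.71 (limma adjusted p = 0.0097). The call in TE thus passed from RRP7A to IMP3, while RRP1 was called either way. In this setting 2 of 42 factors were called, beside 303 of 11240 genes.

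**Figure D5:**
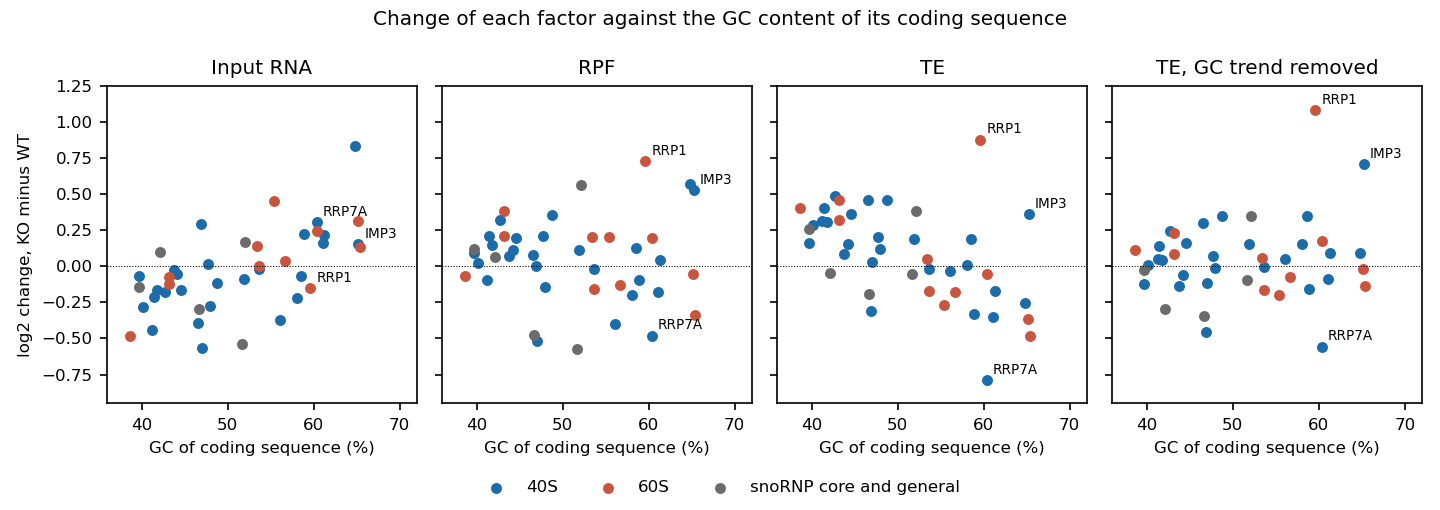
Log2 change (METTL5-KO minus METTL5-WT, y axis) against GC content of the coding sequence in percent (x axis) for the 42 factors in input RNA, RPF, TE and TE with the GC trend removed, coloured by arm. Points climb with GC content in input RNA (rho 0.60) and descend in TE (rho -0.56), and RRP1 lies above the others in both TE panels.

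Other genes of the pathway were taken from lists by role. Of 119 such genes tested, 4 were called higher and 12 lower in input, 14 higher and 8 lower in RPF, and 4 higher and 0 lower in TE. These calls were 13.4%, 18.5% and 3.36% of the 119, below the 22.4%, 26.6% and 4.72% of all genes. In TE, 30 of the 119 reached an unadjusted p under 0.05, edgeR by itself called 6 and limma by itself 4. The 4 were AAMP, which was 0.61 ± 0.16 higher in TE (SE; limma adjusted p = 0.042), SBDS, 0.84 ± 0.15 (limma adjusted p = 0.00701), NMD3, 0.67 ± 0.17 (limma adjusted p = 0.0363), and GAR1, 0.71 ± 0.20 (limma adjusted p = 0.048). SBDS, which frees the 60S subunit of the factor that keeps it from joining, also rose by 1.05 ± 0.11 in RPF (limma adjusted p = 1.8e-06). NMD3 is the export adaptor of the 60S subunit and GAR1 a core protein of the box H/ACA snoRNPs. With the GC trend removed the changes were 0.77 in AAMP, 0.61 in SBDS, 0.64 in GAR1 and 0.40 in NMD3, and AAMP and SBDS were the 2 genes of these lists then called.

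By list, the 31 genes listed as further 40S factors had 6 called in input (19.4%), 8 in RPF (25.8%) and 1 in TE (3.23%). The shares of all genes were 22.4%, 26.6% and 4.72%, and the TE median of the list was 0.14. The gene called in TE was AAMP, whose place in the 40S arm rests on the list alone. EMG1, a methyltransferase of 18S rRNA, fell most in this list, by 0.90 in input and 0.99 in RPF on the log2 scale (edgeR adjusted p = 5.74e-06 and limma adjusted p = 0.000107). The genes next to it on the chromosome were not examined. The 49 further 60S factors had 7 (14.3%), 5 (10.2%) and 2 (4.08%), with a TE median of 0.14. In TE, DESeq2 called 3 of the further 40S factors, 3 of the further 60S factors and 1 of the further snoRNP genes. The 10 further snoRNP genes had 0 called in input by edgeR, with 4 at an unadjusted p under 0.05 and 0 called by DESeq2, 3 in RPF (30.0%) and 1 in TE (10.0%). The 15 genes of RNA polymerase I, which transcribes the rRNA precursor, had 1 (6.67%) and 2 (13.3%) in input and RPF, and the 14 genes of the exosome, which trims it, had 2 (14.3%) and 4 (28.6%). Neither list had a gene called in TE by both tools, with 3 and 4 genes at an unadjusted p under 0.05 and 1 and 0 called by DESeq2.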

How the data were processed

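Input RNA and ribosome-protected fragments were measured in 8 libraries, and groups followed the sample labels. For input, the authors trimmed reads, aligned them to hg38 with STAR 2.7.3a and deposited raw counts per gene from featureCounts (1.6.0 per the submitters' processing notes), taken by strand over exons and limited to reads with a single mapping place. 3 broken lines were left out, leaving 60718 genes. The authors named the signal values deposited in the TE table RPKM. They were read counts divided by a library size factor, without regard to length, since 100% of them gave whole reads (within 0.01) on a fixed multiple. RPF reads in it had been filtered of rRNA and mapped with the RiboToolkit server. That table also holds the authors' fold changes and p-values of TE, which were not used.

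For the input counts, the quasi-likelihood test of edgeR 4.0.16 was used with filterByExpr and TMM (14054 genes). For RPF and TE, limma 3.58.1 (trend) was fitted to log2(value + 1) of 8 libraries at once, which understates changes of low genes, for the 11240 genes whose mean reached 1 in both library types. The unit had been planned for as normalized values, so this stayed the main estimate, and a call also needed edgeR on the recovered reads. Earlier simulations on these data had given too many false calls for limma alone. All p-values are two-sided and Benjamini-Hochberg adjusted over all genes of a test. An exact permutation test of 2 against 2 libraries cannot go below p = 0.333. Both models were tested on simulated data. The planted changes were larger than those of any factor, so that test does not cover changes of their size. Alternatives included DESeq2 1.42.0, other filters, pseudocounts and scalings, each library left out, replicate blocks, and a local regression on coding GC content (span 0.3) removed from each library. Coding sequences and lengths came from GENCODE release 44 canonical transcripts, which covered 99.8% of the table. R 4.3.3 and Python 3.11.15 were used.

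Input and RPF of the same title came from the same lysate per the protocol. The correlation of their deviations from the group means was -0.016 in METTL5-WT and 0.053 in METTL5-KO.

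The factors, the role lists and the tests were chosen with earlier results of these data known. By rule, values in every library were given for factors called in TE and for the 3 largest rises and falls in each comparison. Other called factors were given with their change, and each further pathway list with its called gene of largest TE change in either direction. IMP3, NCL, RRP1B and NPM1 with values in each library, and NMD3 and EMG1, were added after their values were seen.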

Additional observations from a re-analysis of the deposited data

How the results depend on the processing

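The number of factors called in input (7), RPF (11) and TE (2), the median log2 changes and the 40S minus 60S differences were recomputed under each alternative. Asking for a change of 2-fold or more and an unadjusted p under 0.05 left 0 factors in input, RPF and TE, where 14, 13 and 10 had an unadjusted p under 0.05. DESeq2 on the recovered reads called 4 of 42 in TE. Limma without the variance trend, with edgeR as before, called 0 (7 at an unadjusted p under 0.05, and 2 by edgeR). The shares of all genes called under these settings are not given, so neither count is set against the whole table. Quantile normalization moved the RPF median to 0.0204 and the RPF difference of the arms to -0.0368. Removal of the GC trend moved the RPF median to -0.0251 and the TE difference of the arms to -0.0048, with or without the lysate as a replicate block. With 1 library left out, calls ranged from 1 to 24 in input, 4 to 8 in RPF and 0 to 2 in TE. The input count was 24 without METTL5-KO replicate 1, 1 without METTL5-WT replicate 1 and 3 without METTL5-WT replicate 2. The RPF count was 4 without METTL5-WT replicate 2 and 7 without METTL5-WT replicate 1. The TE count was 0 without METTL5-WT replicate 1 or either METTL5-KO replicate (7, 12 and 7 factors at an unadjusted p under 0.05, and 1.48%, 1.62% and 0.0356% of all genes called). The TE change of RRP1 ranged from 0.73 to 1.03 with 1 library left out. The lone library of an arm is assumed to vary like the others. The medians ranged from -0.1328 to -0.0167 in input, 0.0308 to 0.09 in RPF and 0.0809 to 0.1768 in TE, and the differences of the arms from -0.3074 to -0.0348, -0.1486 to -0.0396 and 0.0751 to 0.2805. The cause was not tested.

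Replicate numbers did not pair the genotypes: the correlation of deviations was 0.039 for input and -0.002 for RPF. The replicate block on these numbers called 7, 11 and 2 factors, and that on the lysate 2 in TE. The 25 changes of factors that were called, or among the 3 largest in a comparison, kept their sign under each alternative. Over all 42 factors, removal of the GC trend turned the sign of 8 input, 10 RPF and 10 TE changes, none of them called, among them NOP58 in TE (to -0.02), PES1 in input (to -0.04) and UTP4 in TE (to -0.12). The METTL5-WT RPF depth of 3970779 and 4592443 reads limits UTP23, with 33 RPF reads in its lowest library, and NPM1.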
